A study of Rattus norvegicus with 6 samples.

Results

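The sarcomere is the contractile unit of striated muscle. The genes described here encode its thick filament (myosin heavy and light chains, myosin-binding proteins), its thin filament (actins, tropomyosins, troponins) and its Z-disc and M-band, together with desmin and the chaperone Cryab. They were chosen by name, with earlier results of these data known. Of 40 gene names listed, 38 were found among the 32623 genes of the deposited expression table, and Ttn and Tcap were not analysed here. The cells were H9C2, an established line grown from embryonic rat heart and kept in medium with 1 g/L glucose. The siFGFR1+HG cells received an siRNA against the fibroblast growth factor receptor FGFR1 and then 33 mM glucose for 8 h, the HG cells received 33 mM glucose for 8 h, and the Ctrl cells were labelled as untreated. There were 2 libraries per group, and all groups share 1 cell line. The labels name neither a control siRNA nor an osmotic control for the added glucose. Nothing in the labels ties the paired libraries to separate cultures, so the p-values below measure only a spread that may be technical.

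Most sarcomere proteins are encoded by small gene families whose members are used at different stages and in different muscles. Developing skeletal muscle and heart share several of them, such as the embryonic and atrial light chain Myl4 and the cardiac troponin T gene Tnnt2. Both genes, and the embryonic heavy chain Myh3, are made in immature skeletal muscle fibres before fast and slow adult isoforms take over. Smooth muscle actin, encoded by Acta2, is also made by undifferentiated myoblasts and by fibroblasts. H9C2 cells grow as myoblasts and can fuse into tubes that make skeletal muscle proteins.

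Each library held between 46960084 and 75021470 counts. The targeted gene, Fgfr1, had 4 and 0 counts in siFGFR1+HG libraries, 0 and 0 in HG libraries and 0 and 4 in Ctrl libraries, too few to check the knockdown, and the siRNA group is named here by its label. Of the skeletal myoblast regulators, Myod1 stood at 62.9 to 67.4 FPKM (fragments per kilobase of transcript, scaled to library size) over the 6 libraries, and the myoblast cadherin Cdh15 at 116 to 139 FPKM. Of the cardiac transcription factors, Gata4 stood at 3.83 to 4.85 FPKM and Nkx2-5 at 4.37 to 5.40 FPKM, while Tbx5 had no count in any library and 7 of the 11 cardiomyocyte markers stayed under 1 FPKM in every library. Cardiac factors were thus present in part, while the cardiomyocyte contractile genes Myh6, Myl7 and Tnni3 were at or near 0. Of 10 fibroblast markers, 6 were expressed, with Col1a1 at 3107 to 4127 FPKM, while Tcf21 had no count and Pdgfra did not exceed 0.0338 FPKM. All 6 endothelial markers in the table were under 1 FPKM, and of 7 macrophage markers 5 were, with Ptprc at 0 in every library, while Cd14 stood at 8.97 to 11.4 FPKM and Cd68 at 0.423 to 1.31 FPKM.

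In the promoters, sequences are shown for 6 members that represent the patterns described below: Myh3, Myl4, Acta1 and Tnnc2, which fell in siFGFR1+HG cells against HG cells, Ldb3, which rose, and Acta2, the most abundant member, which was not called there. Each is the 250 bases before the annotated start, 5′ to 3′ on the gene's strand, from RefSeq on build GRCr8. Capitals mark matches on either strand to the E-box CANNTG (the site of Myod1 and Myog), the MCAT element CATTCC and the TATA box TATAAA. The CArG box of serum response factor and the MEF2 box are marked too. The CArG box was searched as CC, 6 letters A or T, then GG, so near matches stay in lower case.
Myh3, chr10:52268935-52269184, plus strand: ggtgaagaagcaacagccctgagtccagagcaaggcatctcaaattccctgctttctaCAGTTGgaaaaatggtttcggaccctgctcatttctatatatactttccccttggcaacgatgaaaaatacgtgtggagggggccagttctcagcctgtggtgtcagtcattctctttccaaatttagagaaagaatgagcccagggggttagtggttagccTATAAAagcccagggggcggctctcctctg
Myl4, chr10:89975900-89976149, plus strand: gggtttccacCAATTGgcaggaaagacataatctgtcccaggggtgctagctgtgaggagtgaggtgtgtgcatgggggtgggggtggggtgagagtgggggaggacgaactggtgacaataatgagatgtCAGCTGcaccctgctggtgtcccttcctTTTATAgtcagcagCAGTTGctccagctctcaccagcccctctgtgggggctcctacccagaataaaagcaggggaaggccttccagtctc
Acta1, chr19:68784195-68784444, minus strand: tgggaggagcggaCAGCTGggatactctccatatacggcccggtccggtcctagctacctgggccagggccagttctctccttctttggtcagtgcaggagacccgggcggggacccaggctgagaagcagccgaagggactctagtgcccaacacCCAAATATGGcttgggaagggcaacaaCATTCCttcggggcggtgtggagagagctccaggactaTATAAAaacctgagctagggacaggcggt
Tnnc2, chr3:173935340-173935589, minus strand: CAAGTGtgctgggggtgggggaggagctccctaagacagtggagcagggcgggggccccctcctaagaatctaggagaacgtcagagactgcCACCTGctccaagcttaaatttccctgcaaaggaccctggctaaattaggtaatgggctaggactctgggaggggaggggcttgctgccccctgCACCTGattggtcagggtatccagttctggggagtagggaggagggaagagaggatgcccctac
Ldb3, chr16:9924680-9924929, minus strand: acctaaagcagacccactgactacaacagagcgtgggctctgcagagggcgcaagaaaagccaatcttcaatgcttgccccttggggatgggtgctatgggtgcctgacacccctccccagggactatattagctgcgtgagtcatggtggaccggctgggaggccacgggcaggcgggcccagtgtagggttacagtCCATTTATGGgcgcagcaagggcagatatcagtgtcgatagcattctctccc
Acta2, chr1:241172504-241172753, minus strand: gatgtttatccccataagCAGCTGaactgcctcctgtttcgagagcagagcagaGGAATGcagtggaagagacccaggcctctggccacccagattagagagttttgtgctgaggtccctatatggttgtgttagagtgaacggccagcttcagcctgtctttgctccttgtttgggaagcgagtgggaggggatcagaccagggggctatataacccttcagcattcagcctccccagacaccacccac

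Promoters were found for 17 of the 22 members that entered the tests, in 22 windows because some genes have more than 1 start. An E-box CANNTG lay in 16 of those windows (72.7%), against 65.5% of all 33469 windows of this length. Its form CAGCTG, a subset of the same matches, lay in 8 windows (36.4%, against 12% of all windows), among them those of Myh4, Myl4, Tnnt2, Acta1 and Acta2. The MCAT element lay in 5 windows (22.7%, against 12.1%) and the TATA box in 6 (27.3%, against 12.9%). An exact CArG box was found upstream of Myh4, Acta1 and Ldb3 (13.6% of windows, against 1.5%), and a MEF2 box upstream of Myh4 and Xirp1 (13.6%, against 2.96%). Near matches to the CArG box were not counted, such as ccctatatgg and ccttgtttgg in the Acta2 window. In the windows printed above, Acta1 combined a TATA box, an MCAT element, a CArG box and CAGCTG, whereas Ldb3 held only the CArG box. These matches are descriptions of the letters in the window and were not tested against expression.

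**Figure D1:**
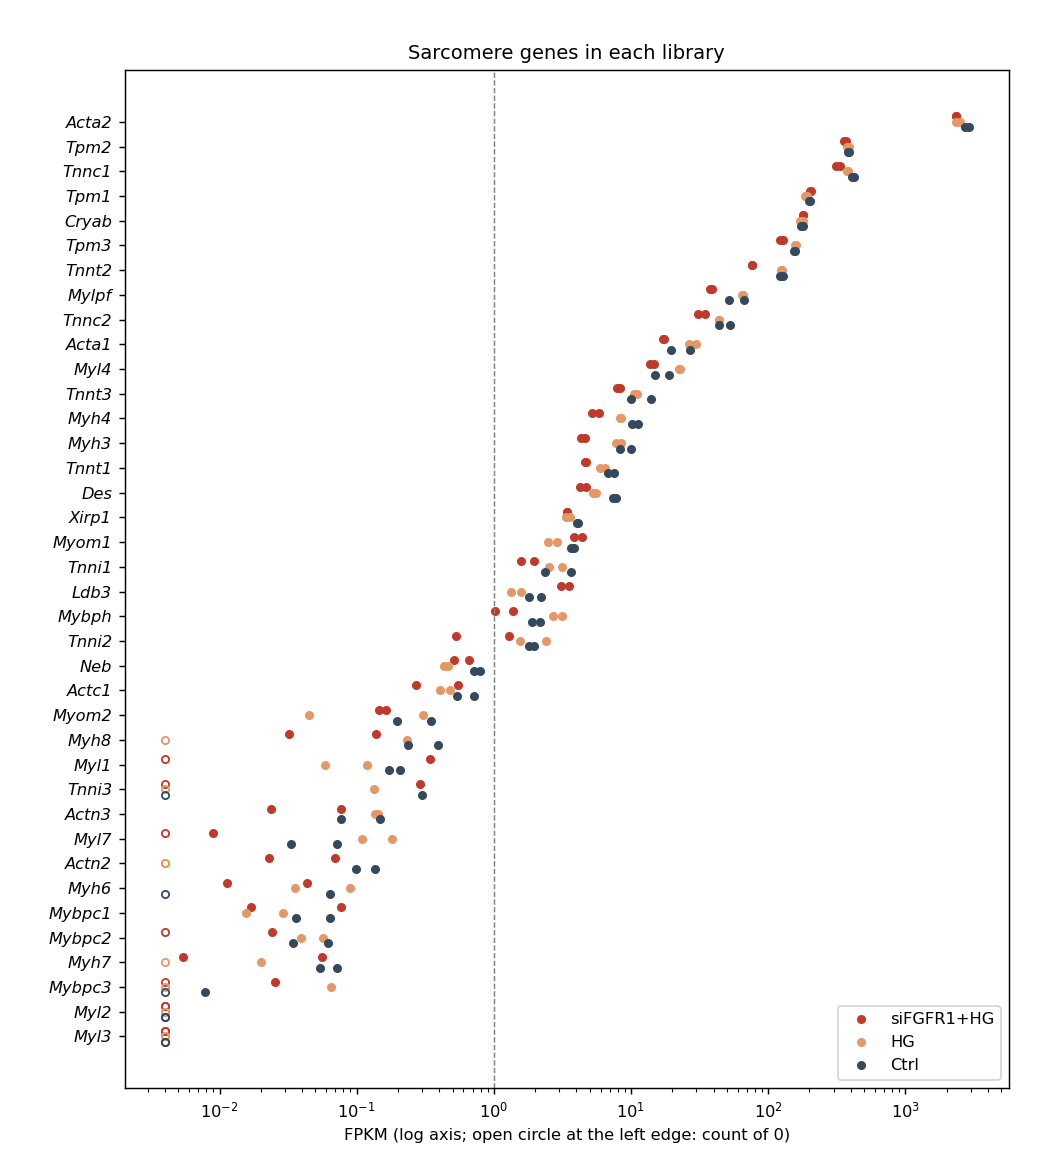
FPKM (log axis) of the 38 sarcomere genes in each library, coloured by group, in order of mean level; open circles at the left edge are counts of 0 and the dashed line is the 1 FPKM used as a filter. Acta2 stands at 2357 to 2897 FPKM, 22 genes pass the filter, and 16 genes stay below the line in every library.

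The levels spanned a wide range. The filter on low values asked for 1 FPKM or more in 2 or more libraries; 22 of the 38 members passed it, and the other 16 stayed at or below 0.792 FPKM, a value reached by Neb, the gene of the giant thin-filament protein nebulin. Acta2 led with a mean of 2538 FPKM over the 6 libraries and took 59.0 to 63.5% of the summed FPKM of all members. The tropomyosin Tpm2 (mean 378 FPKM) and the slow and cardiac troponin C gene Tnnc1 (mean 373 FPKM) followed, and their ranges over libraries overlapped. Next came Tpm1 (198 FPKM), the small heat-shock chaperone Cryab (177 FPKM) and Tpm3 (146 FPKM). Their ranges did not overlap each other. Tnnt2 followed at 109 FPKM, overlapping Tpm3 in range, then the fast regulatory light chain Mylpf (54.4 FPKM) and the fast troponin C Tnnc2 (41.6 FPKM), which overlapped each other. From Acta1 (22.8 FPKM) down to Tnni2 (1.59 FPKM) nearly all neighbours in the order overlapped, with the step from Des to Xirp1 as the exception.

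By isoform class, most cardiac genes were nearly silent, with Tnnt2 and the slow and cardiac gene Tnnc1 as exceptions. Of 6 cardiac isoforms only Tnnt2 passed the filter, and the heavy chain Myh6, the atrial light chain Myl7, the inhibitory subunit Tnni3, the binding protein Mybpc3 and the cardiac actin Actc1 stayed at or below 0.715 FPKM, the value of Actc1 in 1 Ctrl library. Of the 4 genes shared by slow skeletal muscle and heart only Tnnc1 passed, while Myh7 did not exceed 0.0723 FPKM. Myl2 and Myl3, the ventricular light chains, had 0 counts in all 6 libraries, which allows a level of up to 0.160 to 0.256 CPM (counts scaled to library size) depending on the library. Developmental and fast skeletal isoforms were better represented, with 2 of 3 and 5 of 8 passing, and 2 of 3 slow skeletal isoforms passed. Sarcomeric alpha-actinin, which anchors actin in the Z-disc, was at or below 0.149 FPKM for both Actn2 and Actn3.

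**Figure D2:**
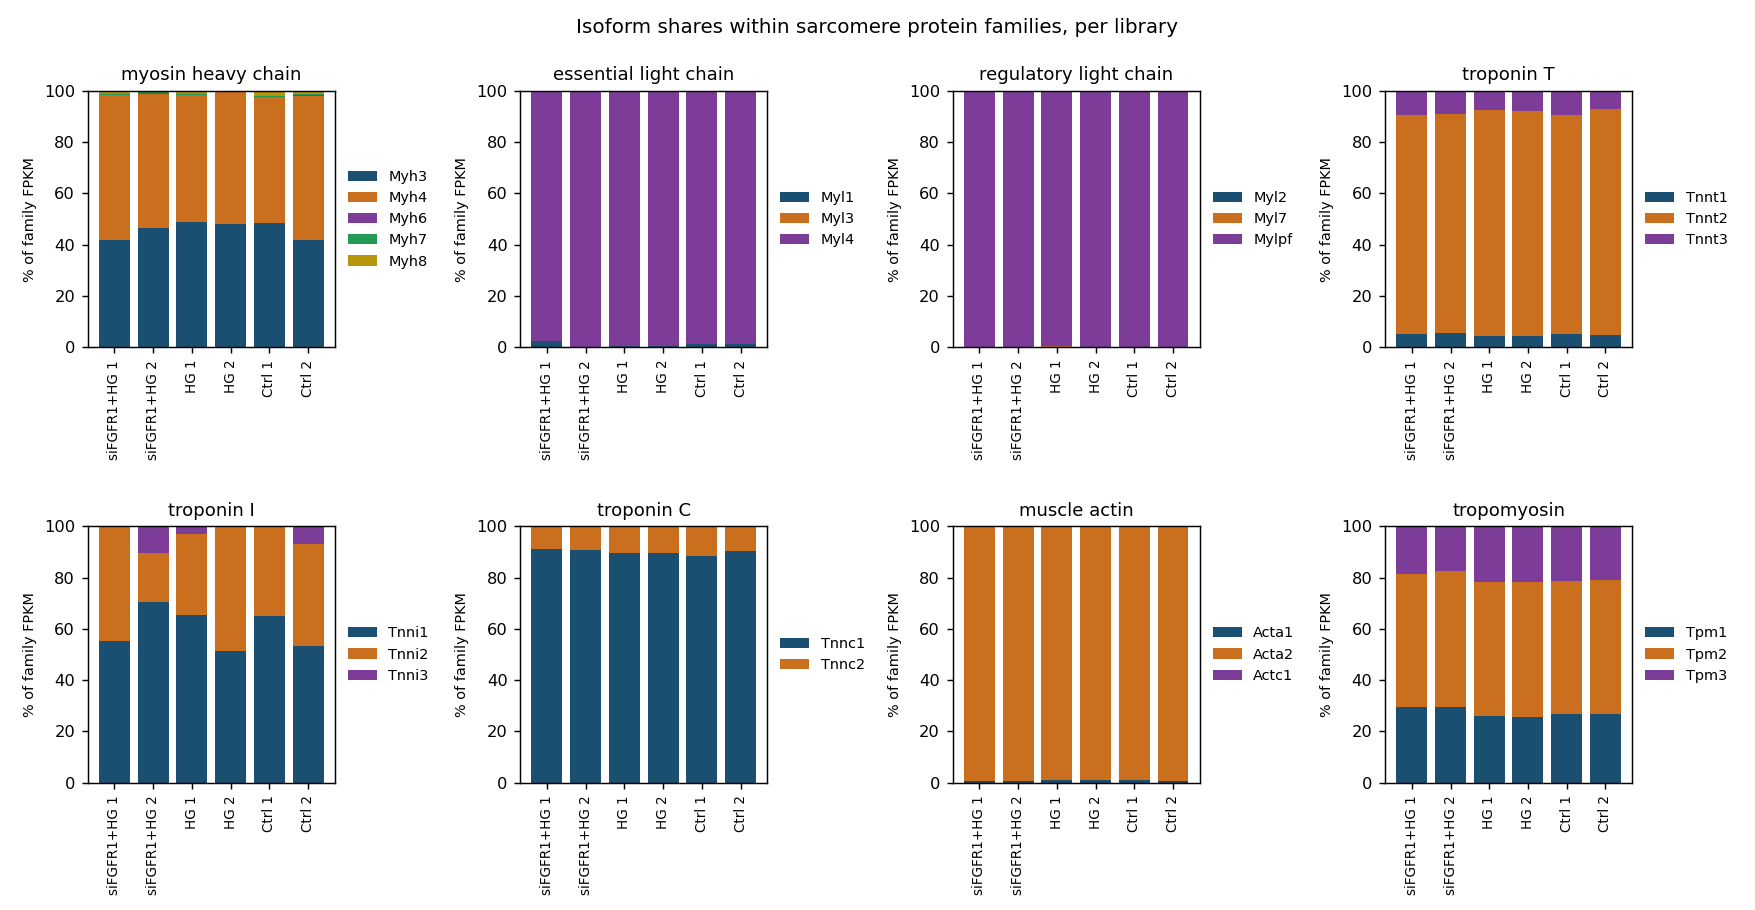
Percent of the summed FPKM of each family's listed sarcomere genes taken by each gene, 1 stacked bar per library, libraries ordered siFGFR1+HG, HG, Ctrl. Among these genes, single isoforms hold most of the light chain, troponin T, troponin C and muscle actin FPKM. The Tpm1 and Tpm3 shares of the siFGFR1+HG libraries stand apart from the others.

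Within families, summed over the listed sarcomere genes only, 1 isoform usually dominated in every library. Myl4 made up 97.5 to 100% of the listed essential light chain FPKM and Mylpf at least 99.7% of the listed regulatory light chain FPKM. Light chain genes of smooth muscle and non-muscle cells, which are outside these sums, stood higher. Myl6 had 856 to 987 FPKM, Myl12a 845 to 1035 FPKM, Myl9 406 to 451 FPKM and Myl12b 134 to 157 FPKM. Tnnt2 took 85.4 to 88.4% of troponin T, Tnnc1 88.6 to 91.1% of troponin C and Acta2 98.8 to 99.3% of the muscle actins. Troponin I was divided between slow Tnni1 (51.3 to 70.5%) and fast Tnni2 (19.1 to 48.7%), with a spread within groups as large as that between them. Mybph, encoding a myosin-binding protein of skeletal muscle, took 91.7 to 98.3% of its family. Muscle actin sequences are nearly identical to each other and to the cytoplasmic actins, so the counts of Acta1, Actc1 and Acta2 may hold reads of one another, and the same holds for the heavy chains.

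The myosin heavy chain rows need a separate caution. Myh3 (41.8 to 49.0%) and the row named Myh4 (49.3 to 56.6%) divided nearly all FPKM of the listed heavy chains. Unlisted were non-muscle Myh9 (219 to 271 FPKM) and Myh10 (38.9 to 51.0 FPKM) and smooth muscle Myh11 (0.738 to 3.87 FPKM). On counts, which are not corrected for length, the Myh4 row averaged 78.2% in siFGFR1+HG, 75.3% in HG and 77.1% in Ctrl libraries. On chromosome 10, Myh3 was listed at 53621375 to 53645194, Myh4 at 53713938 to 53848347 and Myh8 at 53818818 to 53918524, all on the plus strand, so that the Myh4 row overlapped the Myh8 row by 29530 bases. Its length as implied by counts and FPKM was 18805 bases, 3.01 times the 6253 bases of Myh3. In RefSeq the order in this cluster is Myh3, Myh2, Myh1, Myh4 and Myh8, and rows named Myh1 and Myh2 were not analysed here. The row named Myh4 may therefore hold reads of other fast heavy chains, and its values are those of the row rather than of 1 isoform. Overlaps of the remaining members with other rows were small or lay with rows near 0, and whether counting used strand is not given in the sources used here.

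Troponin T and troponin I genes lay in pairs in the table. Tnni1 (chromosome 13, 52624878 to 52637297) preceded Tnnt2 (52662996 to 52680990), Tnni2 (chromosome 1, 215609036 to 215611658) preceded Tnnt3 (215666628 to 215683628), and Tnni3 (chromosome 1, 72882806 to 72886488) preceded Tnnt1 (72889270 to 72899659). Expression did not follow the pairs: Tnnt2 averaged 109 FPKM beside 2.54 FPKM for Tnni1, and Tnni3 stayed at or below 0.302 FPKM beside 6.0 FPKM for Tnnt1. These coordinates are those of the deposited table, whose build is not certain: the submitters' processing notes name GRCh38, a human build, while all 32623 gene identifiers are rat identifiers.

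The main comparison, siFGFR1+HG against HG, sets cells given siRNA and high glucose beside cells given high glucose alone. With no control siRNA named, siRNA delivery itself and the targeting of FGFR1 cannot be told apart. Contractile genes of several isoform classes were lower in siFGFR1+HG cells. Both heavy chain rows, both light chains, Tnnt2, both troponin C genes, skeletal actin, Tpm3 and Mybph fell, by 1.15- to 2.38-fold. The Z-disc gene Ldb3, the M-band gene Myom1 and Tpm1 rose. In all, 10 of the 22 tested members were lower (45.5%) and 3 were higher (13.6%) at an adjusted p below 0.05 (edgeR quasi-likelihood test, Benjamini-Hochberg over 12229 genes), and 9 did not pass. Among all genes tested 29.9% were called, 15.9% lower and 14.1% higher. The share of members called lower was above this background and the share called higher was near it. The members were chosen with earlier results of these data known, so an excess over the background may come in part from that choice. The median log2 fold change of the 22 members was -0.39, against -0.0084 for all genes tested. Both siFGFR1+HG libraries lay below both HG libraries for 16 members and above them for 3, against 36.1% and 30.4% of all genes tested. In bulk RNA, fewer cells expressing a gene and less RNA of it per cell cannot be told apart.

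**Figure D3:**
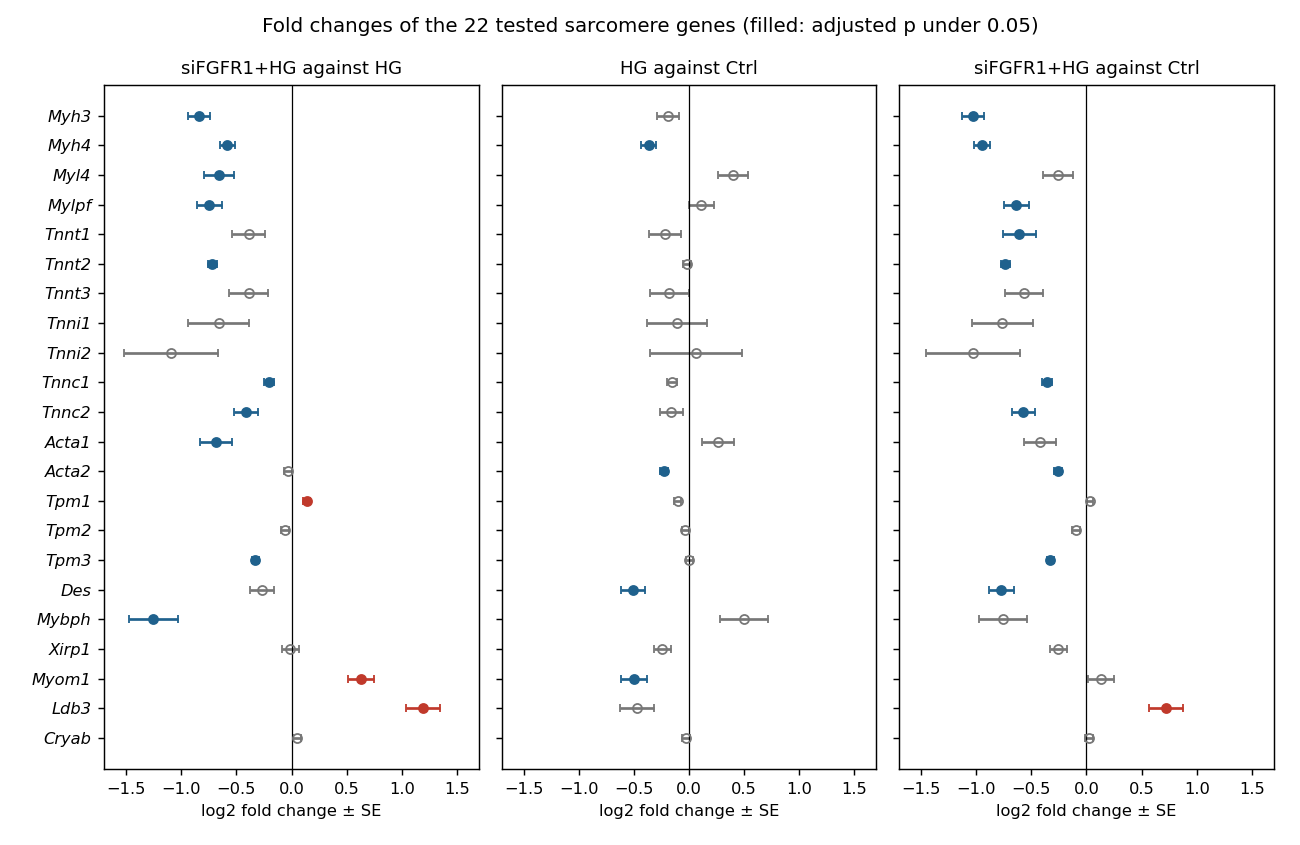
Log2 fold change with standard error of the 22 tested members in the 3 comparisons, filled where the adjusted p was below 0.05 (blue lower, red higher) and open grey otherwise. In siFGFR1+HG against HG the filled points run from -1.25 for Mybph to 1.19 for Ldb3, and in HG against Ctrl 4 points are filled, all lower.

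In the thick filament, Myh3 stood at 4.35 and 4.64 FPKM in siFGFR1+HG libraries, 8.44 and 7.73 FPKM in HG libraries and 9.97 and 8.30 FPKM in Ctrl libraries. Both siFGFR1+HG libraries were low, with no overlap with either other group. The log2 fold change against HG was -0.83 ± 0.10 (SE), or 1.78-fold lower (edgeR adjusted p = 0.00192). The Myh4 row had 5.88 and 5.20 FPKM in siFGFR1+HG, 8.48 and 8.26 FPKM in HG and 10.1 and 11.2 FPKM in Ctrl libraries. The 3 groups were fully separated for this row, in that order. Its log2 fold change against HG was -0.58 ± 0.07 (edgeR adjusted p = 0.00193).

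Both light chains followed the same direction. Mylpf had 38.0 and 38.9 FPKM in siFGFR1+HG, 64.8 and 65.6 FPKM in HG and 66.9 and 52.2 FPKM in Ctrl libraries. The HG values lay within the range of the Ctrl libraries, which differed from each other. Mylpf was 1.68-fold lower than in HG, a log2 fold change of -0.75 ± 0.11 (edgeR adjusted p = 0.0045). Myl4 had 13.7 and 14.7 FPKM in siFGFR1+HG, 22.5 and 22.7 FPKM in HG and 18.9 and 14.9 FPKM in Ctrl libraries. The HG libraries were the high ones here, and the lower Ctrl library nearly met the siFGFR1+HG libraries. Its log2 fold change against HG was -0.66 ± 0.14 (edgeR adjusted p = 0.0149), and the call was lost without either HG library or without siFGFR1+HG 1 (adjusted p 0.054 to 0.0691).

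Mybph showed the largest decrease among the members. It had 1.02 and 1.39 FPKM in siFGFR1+HG libraries, 2.69 and 3.15 FPKM in HG libraries and 1.91 and 2.17 FPKM in Ctrl libraries. The groups did not overlap, and HG was highest. The log2 fold change against HG was -1.25 ± 0.22, or 2.38-fold lower (edgeR adjusted p = 0.00813), at a level close to the filter.

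**Figure D4:**
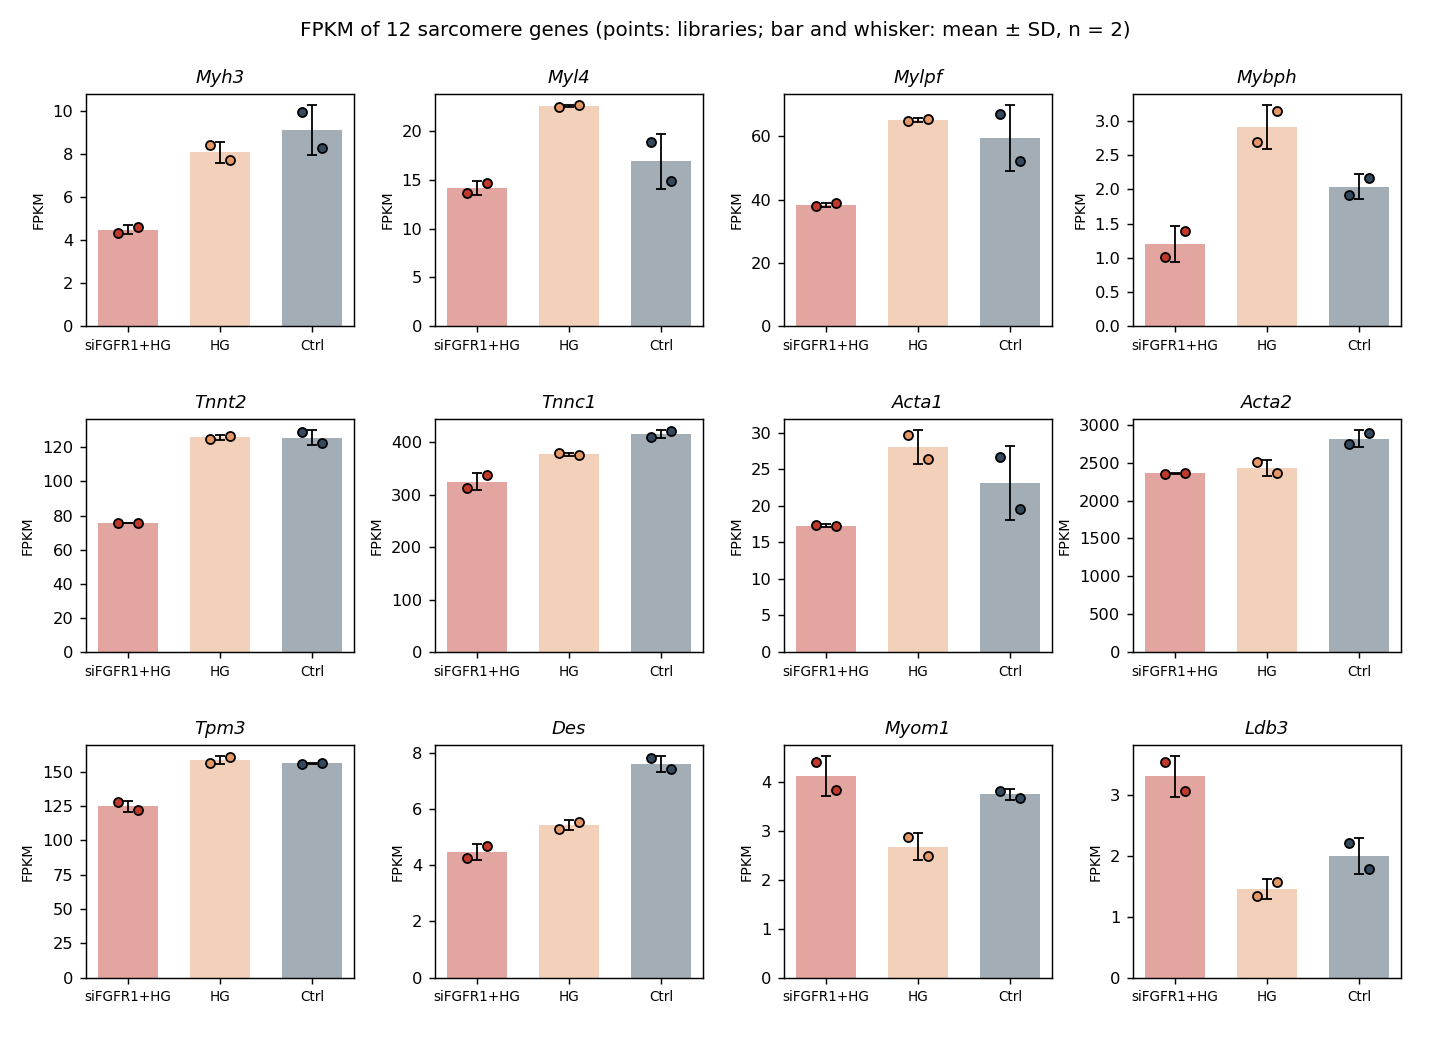
FPKM of 12 members in siFGFR1+HG, HG and Ctrl libraries: points are libraries, bars means and whiskers SD (n = 2). Myh3, Tnnt2, Tpm3 and Mylpf are lowest in siFGFR1+HG, Des is highest in Ctrl, and Ldb3 is highest in siFGFR1+HG.

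In the thin filament, Tnnt2, the subunit that ties troponin to tropomyosin, had the smallest adjusted p of the members. It stood at 75.7 and 75.7 FPKM in siFGFR1+HG, 125 and 127 FPKM in HG and 129 and 123 FPKM in Ctrl libraries. HG and Ctrl libraries overlapped, and both siFGFR1+HG libraries were far below. The difference from HG was 1.65-fold, a log2 fold change of -0.72 ± 0.04 (edgeR adjusted p = 0.000233). The calcium-binding subunits fell less. Tnnc1 had 314 and 337 FPKM in siFGFR1+HG, 380 and 376 FPKM in HG and 411 and 421 FPKM in Ctrl libraries, 3 separate ranges. Its log2 fold change against HG was -0.20 ± 0.04 (edgeR adjusted p = 0.0165). Tnnc2 had 30.7 and 34.6 FPKM in siFGFR1+HG, 43.8 and 43.9 FPKM in HG and 52.9 and 43.9 FPKM in Ctrl libraries. Its siFGFR1+HG libraries lay below all others, with a log2 fold change of -0.41 ± 0.11 against HG (edgeR adjusted p = 0.0296). Both troponin C calls were lost without either HG library or without siFGFR1+HG 1, with an adjusted p up to 0.0645 for Tnnc1 and 0.135 for Tnnc2.

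The other troponins lay lower without passing the test. Slow Tnnt1 had a log2 fold change of -0.39 ± 0.15 (edgeR adjusted p = 0.0958) and fast Tnnt3 of -0.39 ± 0.17 (edgeR adjusted p = 0.144). The inhibitory subunits Tnni1 (-0.66 ± 0.28) and Tnni2 (-1.09 ± 0.43) had wide errors. Tnni2 differed between the siFGFR1+HG libraries themselves, at 1.29 and 0.531 FPKM. Both siFGFR1+HG libraries lay below both HG libraries for all 4 of these genes, a separation also seen for 36.1% of all genes tested.

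Skeletal and smooth muscle actin differed in their values. Acta1 stood at 17.4 and 17.2 FPKM in siFGFR1+HG, 29.7 and 26.4 FPKM in HG and 26.7 and 19.5 FPKM in Ctrl libraries. It fell by 0.68 ± 0.15 on the log2 scale against HG (edgeR adjusted p = 0.0155), a call lost without HG 1 or without either siFGFR1+HG library (adjusted p up to 0.0744). Acta2 stood at 2357 and 2362 FPKM in siFGFR1+HG, 2507 and 2361 FPKM in HG and 2743 and 2897 FPKM in Ctrl libraries. For Acta2 the siFGFR1+HG and HG libraries overlapped, and its log2 fold change was -0.03 ± 0.04 (edgeR adjusted p = 0.553).

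Tropomyosins, the coiled coils that lie along actin and are also made outside muscle, did not move together. Tpm3 had 128 and 122 FPKM in siFGFR1+HG, 156 and 161 FPKM in HG and 156 and 156 FPKM in Ctrl libraries. It was low in siFGFR1+HG libraries and alike in the other groups, with a log2 fold change of -0.33 ± 0.03 against HG (edgeR adjusted p = 0.00101). Tpm1 had 203 and 207 FPKM in siFGFR1+HG, 186 and 191 FPKM in HG and 199 and 201 FPKM in Ctrl libraries. It rose by 0.14 ± 0.03 on the log2 scale (edgeR adjusted p = 0.015), a call lost without HG 1 or without siFGFR1+HG 2 (adjusted p up to 0.0762). Tpm2 had 359 and 368 FPKM in siFGFR1+HG, 375 and 391 FPKM in HG and 382 and 391 FPKM in Ctrl libraries, and did not pass (edgeR adjusted p = 0.227). Shares of the summed FPKM of Tpm1, Tpm2 and Tpm3 do not depend on the scaling between libraries. This sum leaves out Tpm4, which had 598 to 720 FPKM. Tpm1 made up 29.5 and 29.7% of the sum in siFGFR1+HG, 25.9 and 25.8% in HG and 27.0 and 26.9% in Ctrl libraries. Tpm3 made up 18.5 and 17.5% in siFGFR1+HG, 21.8 and 21.6% in HG and 21.1 and 20.9% in Ctrl libraries. Neither share overlapped between siFGFR1+HG and the other groups, and no test was run on shares.

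Of 4 tested Z-disc and intermediate filament members 1 rose, Ldb3, as did the 1 tested M-band member, Myom1. Ldb3, a PDZ and LIM domain protein that binds alpha-actinin at the Z-disc, had 3.55 and 3.08 FPKM in siFGFR1+HG, 1.34 and 1.58 FPKM in HG and 2.21 and 1.80 FPKM in Ctrl libraries. The groups did not overlap, and HG was lowest. It was 2.28-fold higher than in HG, a log2 fold change of 1.19 ± 0.16 (edgeR adjusted p = 0.00262). Myom1, encoding the M-band cross-linker myomesin, had 4.40 and 3.82 FPKM in siFGFR1+HG, 2.87 and 2.48 FPKM in HG and 3.81 and 3.66 FPKM in Ctrl libraries. The HG libraries were again low and separate from both other groups. It was 1.55-fold higher than in HG, a log2 fold change of 0.63 ± 0.12 (edgeR adjusted p = 0.00931).

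The remaining structural members did not pass in this comparison. Desmin, the intermediate filament that links Z-discs, had a log2 fold change of -0.27 ± 0.11 (edgeR adjusted p = 0.123). Cryab (0.05 ± 0.04) and the actin-binding Xin protein gene Xirp1 (-0.01 ± 0.08) had small values with small errors. When each library was left out in turn, 8 of the 13 calls stayed in every case: Myh3, Myh4, Mylpf, Tnnt2, Tpm3, Mybph, Myom1 and Ldb3.

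The second comparison, HG against Ctrl, asks what 8 h of 33 mM glucose did in cells without the siRNA. In HG cells Acta2, Des, Myom1 and the Myh4 row fell and no member rose, so that 4 of 22 were lower (18.2%) and 0 were higher. Among all genes tested 13.7% were called, 7.85% lower and 5.81% higher. No member passed as higher with edgeR at the adjusted threshold, Myl4 was the only one with a positive fold change and an unadjusted p below 0.05, and DESeq2 called 1, Myl4. The median log2 fold change of the members was -0.13, against 0.0033 for all genes. Both HG libraries lay below both Ctrl libraries for 10 members and above for 2, against 27.3% and 32.9% of all genes tested.

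Acta2 fell by 0.23 ± 0.04 on the log2 scale (edgeR adjusted p = 0.0119), and with its high level this was a difference of 2434 ± 104 FPKM in HG against 2820 ± 109 FPKM in Ctrl libraries (SD, n = 2 each). Des had 4.25 and 4.67 FPKM in siFGFR1+HG, 5.29 and 5.54 FPKM in HG and 7.80 and 7.40 FPKM in Ctrl libraries. Its 3 groups were separate, with Ctrl highest. Des fell by 0.51 ± 0.11 on the log2 scale in HG (edgeR adjusted p = 0.0324), Myom1 by 0.50 ± 0.12 (edgeR adjusted p = 0.0387) and the Myh4 row by 0.36 ± 0.07 (edgeR adjusted p = 0.0215). These are small effects in few libraries: Acta2 lost its call without Ctrl 2 (adjusted p = 0.0562), and Des, Myom1 and the Myh4 row lost theirs without any 1 of the HG or Ctrl libraries, with an adjusted p up to 0.164, 0.180 and 0.0969 in turn.

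Several members that were lower in siFGFR1+HG than in HG cells showed little difference between HG and Ctrl. Tnnt2 had a log2 fold change of -0.02 ± 0.04 in HG against Ctrl (edgeR adjusted p = 0.807) and Tpm3 of 0.0035 ± 0.03 (edgeR adjusted p = 0.959). For Myh3 the value was -0.19 ± 0.10 and for Mylpf 0.11 ± 0.11, and neither passed. Myl4 (0.40 ± 0.14, edgeR adjusted p = 0.111), Mybph (0.49 ± 0.22, edgeR adjusted p = 0.19) and Acta1 (0.26 ± 0.14, edgeR adjusted p = 0.287) had positive values that did not pass. Ldb3 had a negative one, -0.47 ± 0.15 (edgeR adjusted p = 0.0966). This comparison and the preceding one share the HG libraries, so opposite signs between them are not independent.

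The third comparison, siFGFR1+HG against Ctrl, joins both treatments. Members were lower here too: 10 of 22 fell (45.5%), 1 rose (4.55%) and 11 did not pass, against 12.4% lower, 9.82% higher and 22.3% called in all among the genes tested. The median log2 fold change was -0.49, against 0.0103 for all genes, and both siFGFR1+HG libraries lay below both Ctrl libraries for 18 members (30.9% of all genes tested). Myh3 was 2.04-fold lower, with a log2 fold change of -1.03 ± 0.10 (edgeR adjusted p = 0.00121), and the Myh4 row was 1.93-fold lower (-0.95 ± 0.07, edgeR adjusted p = 0.000466). Des was 1.71-fold lower (-0.77 ± 0.11, edgeR adjusted p = 0.00494) and Tnnt2 1.67-fold lower (-0.74 ± 0.04, edgeR adjusted p = 0.000226). Tnnc1 (-0.36 ± 0.04), Tpm3 (-0.33 ± 0.03) and Acta2 (-0.26 ± 0.04) fell by less. Mylpf (-0.63 ± 0.11), Tnnc2 (-0.57 ± 0.11), Tnnt1 (-0.61 ± 0.15) and, upward, Ldb3 (0.72 ± 0.15) passed as well, and these 4 were lost when at least 1 library was left out, with an adjusted p up to 0.138 for Tnnt1. Tnnt1 had 4.61 and 4.73 FPKM in siFGFR1+HG, 5.97 and 6.44 FPKM in HG and 7.5 and 6.75 FPKM in Ctrl libraries, 3 separate ranges. Myl4 (-0.26 ± 0.14) and Acta1 (-0.42 ± 0.15) did not pass against Ctrl.

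By isoform class, summed FPKM of the developmental genes was 18.2 and 19.4 in siFGFR1+HG, 31.2 and 30.4 in HG and 29.3 and 23.5 in Ctrl libraries. The fast skeletal sum was 84.6 and 87.3 in siFGFR1+HG, 129 and 131 in HG and 146 and 119 in Ctrl libraries. Both sums were lowest in siFGFR1+HG and overlapped between HG and Ctrl only for the fast class. The cardiac sum, which is nearly all Tnnt2, was 76.3 and 76.3 in siFGFR1+HG, 126 and 127 in HG and 129 and 124 in Ctrl libraries. The slow skeletal sum was 6.21 and 6.77 in siFGFR1+HG, 9.14 and 8.99 in HG and 11.2 and 9.17 in Ctrl libraries. Embryonic, fast, slow and cardiac isoforms thus all had their lowest sums in the siFGFR1+HG libraries. The genes shared by striated muscles did not: their sum was 198 and 195 in siFGFR1+HG, 188 and 196 in HG and 194 and 199 in Ctrl libraries, most of it Cryab. The sums follow few genes, mainly Myl4 in the developmental class and Mylpf and Tnnc2 in the fast class. Of 2 tested slow skeletal genes, 0 were called in siFGFR1+HG against HG. Among single genes tested, 36.1% had both siFGFR1+HG libraries below both HG libraries. No test was run on these sums.

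**Figure D5:**
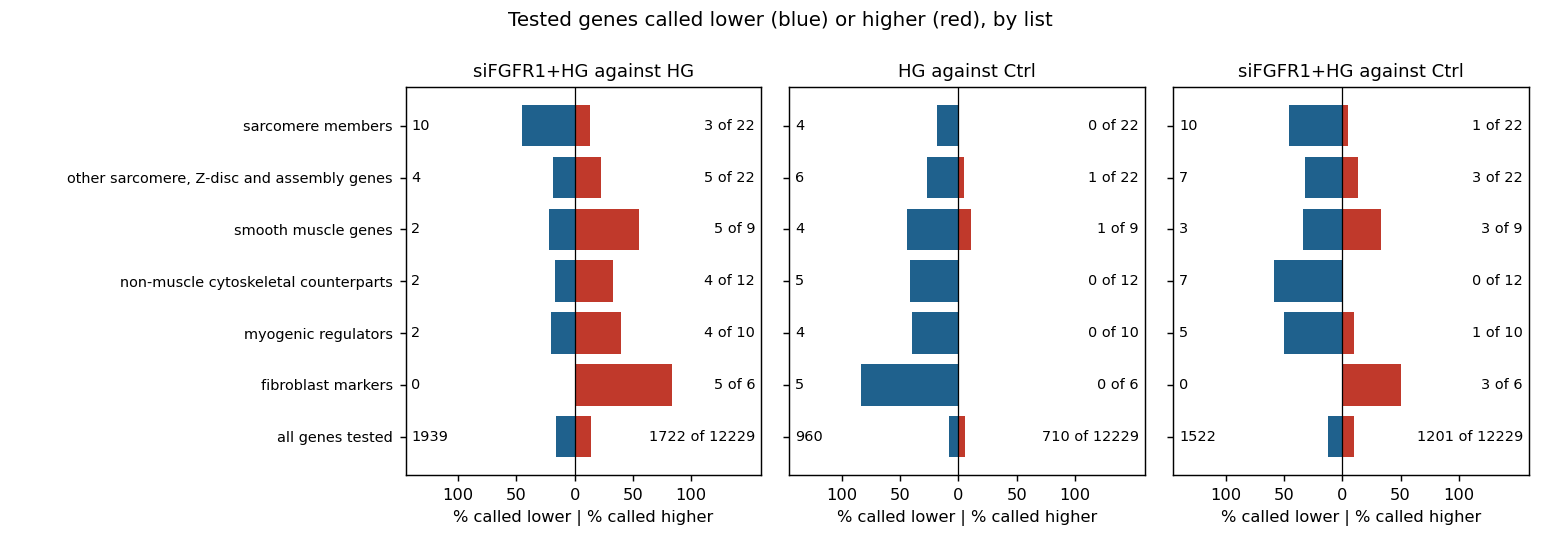
Percent of tested genes called lower (blue, leftward) and higher (red, rightward) for the sarcomere members, other gene lists and all genes tested, in the 3 comparisons; numbers at the edges are counts. In siFGFR1+HG against HG the members are called lower more often than all genes (10 of 22 against 1939 of 12229), and 5 of 6 fibroblast markers are called higher.

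For the lists below, the background among all genes tested was 14.1% called higher and 15.9% lower in siFGFR1+HG against HG. In HG against Ctrl it was 5.81% higher and 7.85% lower, and no list was tested as a set. Other genes of the sarcomere, its Z-disc and its assembly went both ways. Of 22 tested, 5 were higher and 4 lower in siFGFR1+HG against HG. Of these 9 called genes, the 3 with the largest changes rose: the small heat-shock protein gene Hspb7 (0.83 ± 0.16, edgeR adjusted p = 0.0102), filamin C, a Z-disc actin cross-linker encoded by Flnc (0.64 ± 0.03, edgeR adjusted p = 0.00012), and Synpo2l (0.57 ± 0.05, edgeR adjusted p = 0.000644). In HG against Ctrl, 1 was higher and 6 lower, with the myosin chaperone gene Unc45b at -0.79 ± 0.20, Flnc at -0.60 ± 0.03 and Obsl1 at -0.32 ± 0.04. Flnc stood at 113 and 111 FPKM in siFGFR1+HG, 73.5 and 71.5 FPKM in HG and 109 and 109 FPKM in Ctrl libraries, so the HG libraries were low and the other groups near each other.

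Smooth muscle genes went 5 higher and 2 lower of 9 in siFGFR1+HG against HG, and 1 higher and 4 lower in HG against Ctrl. Of the called genes the smooth muscle heavy chain Myh11 had the largest change, at 1.05 and 0.738 FPKM in siFGFR1+HG, 3.87 and 3.72 FPKM in HG and 1.16 and 1.20 FPKM in Ctrl libraries. It was high in HG libraries, with a log2 fold change of -2.07 ± 0.18 in siFGFR1+HG against HG and 1.67 ± 0.17 in HG against Ctrl. Lmod1 (0.95 ± 0.08) and Myocd, the serum response factor coactivator (0.50 ± 0.06), rose in siFGFR1+HG against HG, and both fell in HG against Ctrl (-0.55 ± 0.08 and -0.34 ± 0.06 in turn). Non-muscle cytoskeletal genes went 4 higher and 2 lower of 12 in siFGFR1+HG against HG, led by Myh10 (0.27 ± 0.04), Tpm4 (-0.19 ± 0.04) and Myl12a (-0.19 ± 0.04), and 0 higher and 5 lower in HG against Ctrl, led by Myh10 (-0.35 ± 0.04), Myh9 (-0.30 ± 0.02) and Vim (-0.28 ± 0.03).

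Among 10 tested myogenic regulators and myoblast genes, 4 were higher and 2 lower in siFGFR1+HG against HG. Mymk, which drives myoblast fusion, had 2.04 and 1.65 FPKM in siFGFR1+HG, 4.30 and 4.08 FPKM in HG and 3.65 and 3.35 FPKM in Ctrl libraries, and fell by 1.16 ± 0.18 on the log2 scale against HG (edgeR adjusted p = 0.00466). Myog, the factor that starts terminal differentiation, had 16.1 and 16.9 FPKM in siFGFR1+HG, 21.9 and 23.4 FPKM in HG and 25.3 and 27.4 FPKM in Ctrl libraries, and fell by 0.44 ± 0.07 (edgeR adjusted p = 0.00527). Both genes were lowest in the siFGFR1+HG libraries, while the median log2 fold change of the 10 tested genes against HG was 0.037. Mef2d rose by 0.54 ± 0.07. In HG against Ctrl 0 were higher and 4 lower, led by Des, which is also a sarcomere member, Mef2a (-0.46 ± 0.09) and Cav3 (-0.32 ± 0.06).

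Fibroblast markers also differed between the groups. Of 10 listed and 6 tested, 5 were higher and 0 lower in siFGFR1+HG against HG, led by Col3a1 (0.77 ± 0.05), Ddr2 (0.57 ± 0.05) and Col1a1 (0.40 ± 0.03), and 0 were higher and 5 lower in HG against Ctrl, led by Pdgfrb (-0.31 ± 0.04), Ddr2 (-0.25 ± 0.05) and Col3a1 (-0.24 ± 0.05). Their summed FPKM was 5601 and 5546 in siFGFR1+HG, 4245 and 4197 in HG and 4689 and 4461 in Ctrl libraries, while the defining markers Tcf21 and Pdgfra were at or near 0. Any relation of these markers to the lower contractile genes of siFGFR1+HG cells was not tested. Of 3 tested cardiomyocyte markers 1 was higher, Hand2 (0.36 ± 0.10), and 0 were lower in siFGFR1+HG against HG, with a summed FPKM of 34.0 and 33.9 in siFGFR1+HG, 28.9 and 27.3 in HG and 32.8 and 31.5 in Ctrl libraries. Of 2 tested macrophage markers none was called by edgeR in any comparison, the smallest adjusted p being 0.0901.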

How the data were processed

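RNA-seq of 6 libraries of rat H9C2 cells (total RNA) in 3 groups of 2 was used. Reads were processed with fastp, HISAT2 and StringTie, per the submitters' processing notes, which give no versions. The deposited table holds a count and an FPKM per gene and library, both made by the authors. FPKM corrects for transcript length and library size; a gene with a count of 0 is listed at 0.0001 FPKM and was treated as 0 in shares. The deposited counts are whole numbers, but 4 occurs in 2831 gene and library pairs, against 1214 for 3 and 734 for 5, so a sequenced fragment may add several counts. The limit for a count of 0 was therefore set at 12 counts, 3 fragments of an assumed 4 counts each, and covers counting error only.

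The 12229 of 32623 genes that reached 1 FPKM in 2 or more libraries were tested with edgeR 4.0.16 (quasi-likelihood, TMM, R 4.3.3). All 6 libraries entered 1 fit, with a mean for each group and Benjamini-Hochberg adjustment within each comparison at 0.05. The scripts were tested on simulated data. Standard errors are the log2 fold change divided by the square root of F. Alternatives were DESeq2 1.42.0, limma 3.58.1 on log2(FPKM + 1) and log2(FPKM + 0.1), other scalings, other filters (none, 5 FPKM), 2 groups only, a replicate block and leaving out each library. Isoform shares were computed within a library over the listed sarcomere genes of a family, with no test.

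Libraries of a group correlated at 0.966 to 0.970 over genes, and those of different groups at 0.957 to 0.967. On counts divided by 4, the median chi-square per gene between replicates was 0.696 in siFGFR1+HG, 0.806 in HG and 0.736 in Ctrl, against 0.455 by chance, so no library was treated as a repeated deposit of another. The members and lists were chosen with earlier results of these data known. Members that lead their family or were called get values per library; from other lists the 3 largest called changes per comparison are named, and Myod1, Cdh15 and the other cell type markers with a level but no change were chosen after their values were seen. Promoters are from RefSeq on GRCr8, matched by symbol.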

Additional observations from a re-analysis of the deposited data

How the results depend on the processing

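Over 1038 alternative values for single members, 948 kept direction and side of the threshold, 46 lost and 25 gained the call, and 19 changed sign. All 19 belong to differences that were not called, the largest at 0.285 on the log2 scale. In HG against Ctrl, Tpm3 was -0.0023 with RLE size factors and with DESeq2, -0.0042 with a filter at 5 FPKM and -0.014 to 0.021 with 1 library left out. Tnnt2 was 0.00073 and 0.00074 with limma at pseudocounts of 1 and 0.1. With 1 library left out, Tnnt2 ran from -0.054 to 0.020, Tnnt3 from -0.40 to 0.088, Tnni1 from -0.39 to 0.24, Mylpf from -0.058 to 0.31, Tnni2 from -0.29 to 0.35 and Cryab from -0.054 to 0.0026. In siFGFR1+HG against HG, Xirp1 was 0.013 with upper-quartile factors, 0.00034 with 2 groups only and -0.064 to 0.042 with 1 library left out, and Acta2 -0.076 to 0.014. In siFGFR1+HG against Ctrl, Cryab ran from -0.0033 to 0.046.

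DESeq2 called 2628 genes in HG against Ctrl, against 1670 with edgeR, with 8 members lower and 1 higher; limma called 2 lower at either pseudocount. In siFGFR1+HG against Ctrl, DESeq2 called 17 members lower, and 0 were higher with limma at 0.1 or a filter at 5 FPKM, which Ldb3 does not reach. That filter left 1 member higher in siFGFR1+HG against HG, Tpm1. With 1 library left out, genes called ran from 456 to 1302 in HG against Ctrl (main 1670), 2293 to 3247 in siFGFR1+HG against HG (3661) and 1379 to 2586 in siFGFR1+HG against Ctrl (2723). Members lower ran from 0 to 5, 6 to 10 and 8 to 11 in the same order, and members higher were 0, 2 to 3 and 0 to 1. HG against Ctrl had its lowest gene counts without Ctrl 1 (456) and Ctrl 2 (524). In these runs a lone library is assumed to vary like the other groups.

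Same-numbered libraries did not deviate together (correlations of 0.0595 in HG against Ctrl, -0.0896 in siFGFR1+HG against HG and 0.0514 in siFGFR1+HG against Ctrl). No pairing by number was thus seen, but these values cannot show whether same-numbered libraries shared a culture or run. With the replicate number as a block, 1153, 3253 and 2323 genes were called in the same order, with 3, 9 and 10 members lower and 0, 3 and 1 higher; Des in HG against Ctrl (adjusted p = 0.0575), Tnnc2 in siFGFR1+HG against HG (0.053) and Tnnt1 in siFGFR1+HG against Ctrl (0.056) lost the call and Mybph gained it in siFGFR1+HG against Ctrl (0.0482). The causes of these shifts were not tested. Depth limits what can be said of the 16 members under 1 FPKM.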
